A study of Mus musculus with 4 samples.

Results

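BiP, encoded by Hspa5, is the Hsp70 chaperone of the endoplasmic reticulum (ER), and 8 further genes encode the proteins that drive its ATP cycle: the nucleotide exchange factors Hyou1 and Sil1 and the ER J-domain proteins Dnajb9, Dnajb11, Dnajc1, Dnajc3, Dnajc10 and Sec63. These 9 genes, of 22911 genes named on the array, were taken by name. They were measured by every non-control probe whose RefSeq accession belongs to them, 20 of 56605 probes, in the cerebellum of mice with and without Derl2. A probe was tested when both arrays of a group, or of both groups, stood well above background, which held for 19 of the 20. The remaining probe, the dimmest of 3 for Dnajb11, exceeded background on 1 array of each group and was left out.

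The study compared 2 groups of C57BL/6 mice at postnatal day 28, with 2 one-colour Agilent arrays per group. Control mice were Derl2 flox/flox, and their label names no Cre. Knockout (KO) mice came from crosses of Derl2 flox/flox mice with mice that express Cre recombinase from the nestin promoter, which is active in the precursors of neurons and glia, so cells of other descent may keep the gene. Derl2 encodes Derlin-2, an ER membrane protein of ER-associated degradation, which returns misfolded proteins to the cytosol. The labels do not say how many mice gave each RNA, so the p-values measure only the spread between these samples.

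BiP binds exposed hydrophobic stretches of newly made proteins in the ER lumen. J-domain proteins bring clients to BiP and stimulate its ATPase, and exchange factors release ADP so that the client can leave. When misfolded proteins build up, the unfolded protein response (UPR), with its sensors IRE1, PERK and ATF6, raises transcription of Hspa5 and of several co-chaperones. In the mouse cerebellum, loss of Sil1 is known to cause Purkinje cell degeneration.

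A short promoter sequence links part of this group to the UPR. The ER stress response element (ERSE) has the letters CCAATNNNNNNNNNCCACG, bound by NF-Y at the CCAAT end and by ATF6 at the CCACG end, and it was searched on both strands of the RefSeq promoter table of build GRCm38.p6, which gives 250 bases before and 50 bases after a start site. That table holds 7 of the 9 genes: Hspa5, Dnajb9, Dnajb11, Dnajc1, Dnajc3, Dnajc10 and Sec63. The ERSE was present in 2 of these 7 promoters, Hspa5 and Dnajc3, against 0.119% of all 32851 promoters of the same length. Both promoters are shown because Hspa5 and Dnajc3 had the largest differences between KO and control among the brightest probes of the 9 genes; capitals mark the fixed bases of the ERSE, and each sequence holds the 250 bases up to the start site.
Hspa5, chr2:34771840-34772089, plus strand: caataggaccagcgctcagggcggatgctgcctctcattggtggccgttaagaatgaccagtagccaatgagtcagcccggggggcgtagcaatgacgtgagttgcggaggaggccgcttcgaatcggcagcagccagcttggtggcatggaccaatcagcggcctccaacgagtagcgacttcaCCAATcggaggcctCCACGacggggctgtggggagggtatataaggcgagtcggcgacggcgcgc
Dnajc3, chr14:118937682-118937931, plus strand: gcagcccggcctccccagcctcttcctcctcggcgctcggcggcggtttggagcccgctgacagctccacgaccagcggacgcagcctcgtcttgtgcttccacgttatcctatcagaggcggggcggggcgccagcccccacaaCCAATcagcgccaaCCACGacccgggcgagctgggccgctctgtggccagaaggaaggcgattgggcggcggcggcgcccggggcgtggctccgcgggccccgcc
The element began 65 bases before the start site in Hspa5 and 105 bases before it in Dnajc3. A related form, ERSE-II, reads ATTGG, any base, CCACG, and was present in Dnajb11 alone of the 7 promoters and in 0.0365% of all promoters. Its match is given with the fixed bases in capitals and begins 7 bases after the start site, on the plus strand.
Dnajb11, ERSE-II: ATTGGcCCACG
The core of the UPR element, TGACGTGG, and the core of the ATF4 element, TGATGNAA, were present in 0 of the 7 promoters and in 0.676% and 3.97% of all promoters. A match of letters is a description and does not show that a factor binds there.

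The group labels were checked on the targeted gene. On its brighter probe, Derl2 had a log2 signal of 2.13 and 2.20 in control and 0.81 and 0.70 in KO, where 0 is the 75th percentile of the array. KO minus control was −1.41 (SE 0.11, limma adjusted p 0.273), and both KO arrays lay below both controls. Where the probe lies in the transcript is not given in the sources used here. A dimmer Derl2 probe differed by −1.73 (SE 0.10). All arrays were on 1 slide, so that position on it and group cannot be told apart, with 66.4% to 69.4% of spots well above background and 0 saturated spots. Among marker lists for the cell types of this tissue, all 7 Purkinje cell and all 7 granule cell markers were measured. The Purkinje cell signals summed to 699 and 708 in control and 661 and 670 in KO. Both KO arrays lay below both controls for 4 of these 7 and above them for 2, against 32.1% and 13.8% of all genes. On the log2 scale, the Purkinje cell marker Car8 read 3.99 and 3.13 in control, 1.02 in KO replicate 1 and 3.78 in KO replicate 2. Choroid plexus markers were high on control replicate 2 alone: taken in multiples of the 75th percentile of each array, their signals summed to 33.4 and 242 in control and 24.6 and 26.6 in KO. Of all genes, 36.1% had a difference above 0, so that lower values were the more common. Oligodendrocyte markers were lower in KO for 7 of 7 genes, 5 of them with separate groups against 32.1% of all genes, with summed signals of 381 and 360 in control and 311 and 347 in KO. Microglia markers were also lower for 7 of 7, 5 of them with separate groups, with sums of 22.2 and 21.8 in control and 17.3 and 20.1 in KO. Of 5 plasma and B cell markers, which mark cells rich in ER, Jchain and Cd79b were measured, both dim, with sums from 0.0652 to 0.0877. In RNA of whole tissue, fewer cells of a type and less RNA per cell cannot be told apart.

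Hspa5 was higher in KO on all 3 of its probes. On the brightest, A_55_P2076772, the processed signal was 20548 and 21767 in control and 40279 and 29977 in KO. Both KO arrays stood above both controls, and KO replicate 1 was the higher of the pair. Relative to the 75th percentile, the controls averaged 4.74 ± 0.067 on the log2 scale and the KO arrays 5.55 ± 0.252 (SD, n = 2 each). KO exceeded control by 0.82 (SE 0.16), a 1.76-fold level with a 95% interval of 1.31 to 2.36, and its unadjusted p was 0.0053. Adjusted over all 37516 probes tested, the limma p was 0.273, so Hspa5 did not pass the threshold of 0.05. Against the control mean, KO replicate 1 stood at 199% and KO replicate 2 at 156%. In the order of differences over the brightest probes of 16524 genes, Hspa5 was number 108 from the top.

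The other Hspa5 probes gave the same picture with a wider gap between the KO arrays. On A_55_P2617139 the log2 signal was 2.33 and 2.34 in control, 3.65 in KO replicate 1 and 2.93 in KO replicate 2, a difference of 0.95 (SE 0.26). On A_55_P2617149 it was 1.87 and 1.81 in control, 3.11 in KO replicate 1 and 2.39 in KO replicate 2, a difference of 0.91 (SE 0.26). The groups did not overlap on either probe, and the limma adjusted p was 0.298 and 0.307. With 1 array left out at a time, the brightest probe differed by 0.64 without KO replicate 1 and by 0.99 without KO replicate 2. Without control replicate 2, the array with high choroid plexus markers, the difference was 0.86.

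**Figure D1:**
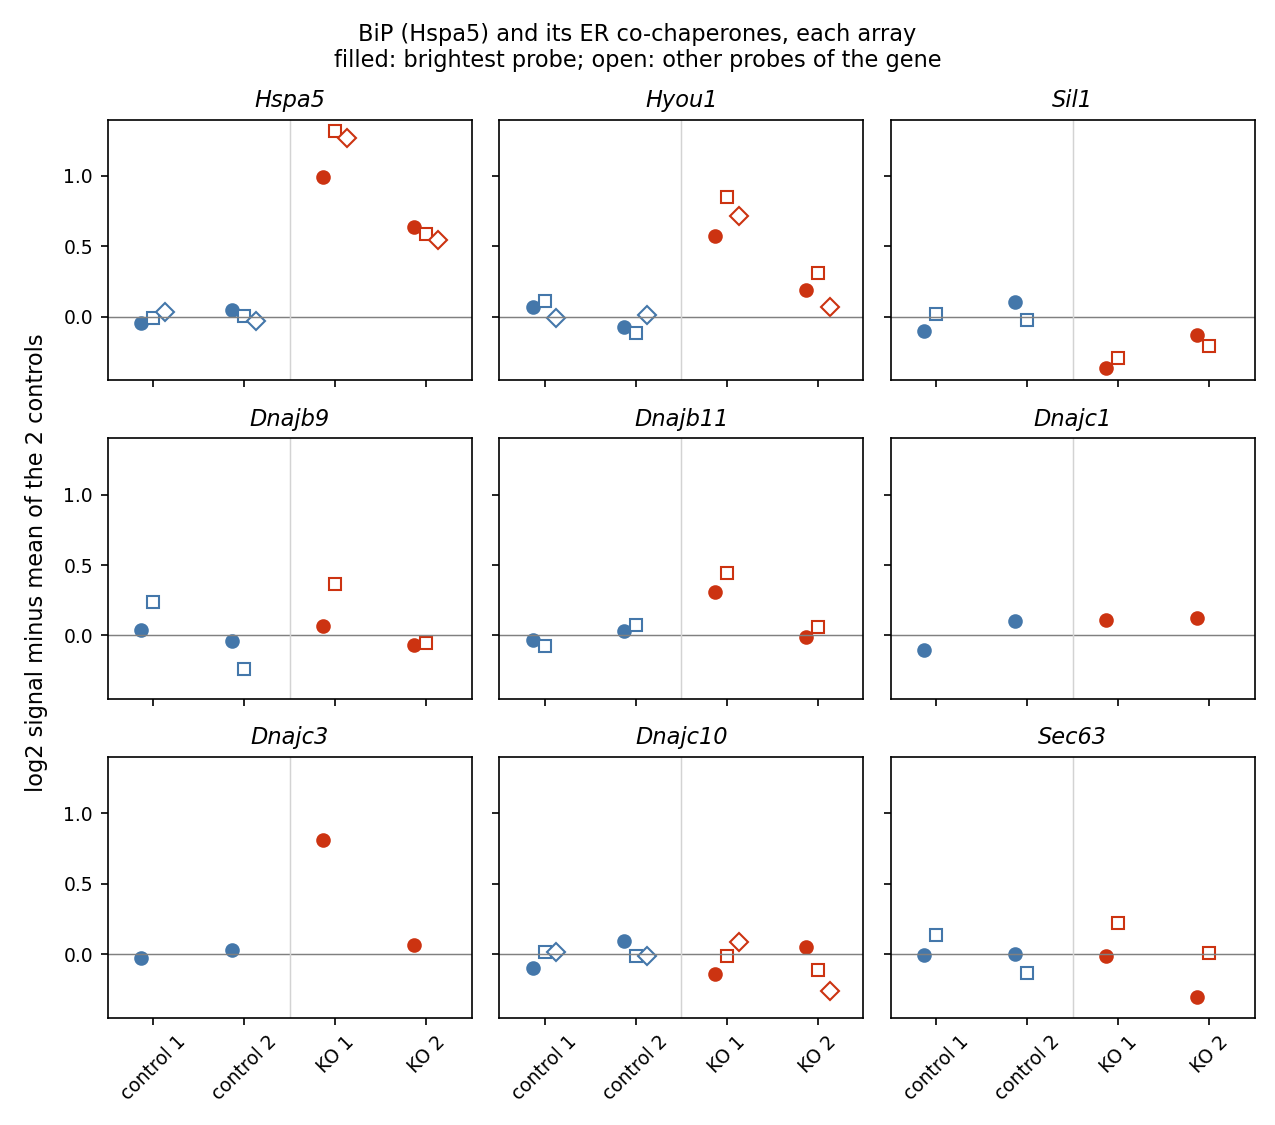
Log2 signal minus the mean of the 2 controls (vertical axis) on each of the 4 arrays (horizontal axis) for the 19 tested probes of the 9 genes, with controls in blue, KO in red, filled points for the brightest probe and open points for other probes of the gene. On KO replicate 1 the 3 Hspa5 probes lie between 0.99 and 1.32 and the 16 co-chaperone probes between −0.37 and 0.85. On KO replicate 2 these ranges are 0.55 to 0.64 and −0.30 to 0.31.

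Hyou1, known as Grp170, is a large Hsp70-related protein that serves as an exchange factor for BiP. Its 3 probes were dim, with spot signals 2.24 to 6.88 times the local background. After scaling, all 3 were higher on both KO arrays than on both controls. On A_65_P20167 the processed signal was 88.3 and 79.4 in control and 119 and 86.8 in KO. Before scaling, KO replicate 2 therefore lay below control replicate 1 on this probe. On the log2 scale KO exceeded control by 0.38 (SE 0.17, limma adjusted p 0.404). The second probe, A_66_P115088, read −3.45 and −3.67 in control and −2.71 and −3.25 in KO, a gap of 0.58 (SE 0.22). The dimmest probe gave 0.39 (SE 0.24). Before scaling, its signal of 35.0 on KO replicate 2 lay below both controls, at 36.5 and 36.7. KO replicate 1 set most of this difference: on A_65_P20167 it stood 0.57 above the control mean and KO replicate 2 stood 0.19 above it. Without KO replicate 1, A_65_P20167 differed by 0.19. Normexp background correction, which adds an offset to dim signals, gave 0.28, 0.31 and 0.17 for the 3 probes.

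Sil1 is the other exchange factor, and its values lay in the opposite direction. On A_51_P438200 the processed signal was 6799 and 7797 in control and 5397 and 6070 in KO. After scaling, the controls averaged 3.20 ± 0.148 and the KO arrays 2.95 ± 0.169 (SD, n = 2 each) on the log2 scale, −0.25 apart (SE 0.14, limma adjusted p 0.492). The second probe, A_66_P133177, gave −1.70 and −1.74 in control and −2.01 and −1.93 in KO, a difference of −0.25 (SE 0.10, limma adjusted p 0.378). On both probes the KO arrays lay below the controls, KO replicate 1 lowest. This arrangement was common: 32.1% of all genes were lower in KO with separate groups on their brightest probe. With the arrays scaled to spike-in probes the differences were −0.16 and −0.17, and under that scaling and quantile normalization the groups of the brighter probe overlapped. Without KO replicate 1 the brighter probe differed by −0.13.

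Among the soluble J-domain proteins of the ER lumen, Dnajc3 had the largest difference. Dnajc3, also called P58IPK, holds unfolded clients and hands them to BiP. Its only probe read 705 and 729 in control, 1203 in KO replicate 1 and 685 in KO replicate 2. After scaling, KO replicate 1 stood 0.81 above the control mean on the log2 scale, and KO replicate 2 stood 0.07 above it, just over the higher control. The difference of 0.44 (SE 0.27, limma adjusted p 0.508) therefore rested on KO replicate 1: without that array it was 0.07.

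Dnajb11, the co-chaperone ERdj3 that binds nascent clients, showed the same lean with overlapping groups. Its brightest probe read 2.77 and 2.84 in control, 3.11 in KO replicate 1 and 2.79 in KO replicate 2 on the log2 scale. The difference was 0.15 (SE 0.15, 95% interval −0.25 to 0.54), and on the next probe it was 0.25 (SE 0.17). Without KO replicate 1 the brightest probe differed by −0.011. The limma adjusted p was 0.662 and 0.537 for the 2 probes.

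Dnajb9, or ERdj4, is known to act with BiP in holding the sensor IRE1 inactive, and its transcript is a known target of the IRE1 and XBP1 branch. Its brighter probe read 3604 and 3374 in control and 3486 and 3024 in KO. After scaling the difference was −0.004 (SE 0.11, 95% interval −0.30 to 0.29), with overlapping groups. That interval does not reach the Hspa5 difference of 0.82. A dimmer probe differed by 0.16 (SE 0.23), with its controls far apart at −2.87 and −3.34.

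Dnajc10, or ERdj5, is a disulfide reductase with a J domain that assists ER-associated degradation. Its 3 probes differed by −0.04, −0.06 and −0.09 (SE 0.10 to 0.15). On the brightest, A_55_P2162678, the log2 signal was 1.79 and 1.98 in control and 1.74 and 1.94 in KO, so that the groups overlapped. Its 95% interval ran from −0.40 to 0.32, and the limma adjusted p was 0.898.

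The J-domain proteins that span the ER membrane were Dnajc1 and Sec63. Dnajc1, or ERdj1, binds ribosomes at the ER, and its only probe read 1.14 and 1.35 in control and 1.36 and 1.37 in KO. Both KO arrays lay above the controls, but only by 0.01 over control replicate 2. The difference was 0.12 (SE 0.12, limma adjusted p 0.674), and it was 0.014 without control replicate 1 and 0.22 without control replicate 2. Sec63 works with the Sec61 channel in protein import. Its brightest probe read 2.67 and 2.68 in control, 2.66 in KO replicate 1 and 2.37 in KO replicate 2, a difference of −0.16 (SE 0.14, limma adjusted p 0.627). Here KO replicate 2, not KO replicate 1, stood away from the controls: the difference was −0.012 without it and −0.30 without KO replicate 1. The dimmer Sec63 probe differed by 0.12 (SE 0.15), with overlapping groups, so the probes of this gene disagreed in sign. Scaling to spike-in probes gave −0.073 for the brightest Sec63 probe, with overlapping groups.

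**Figure D2:**
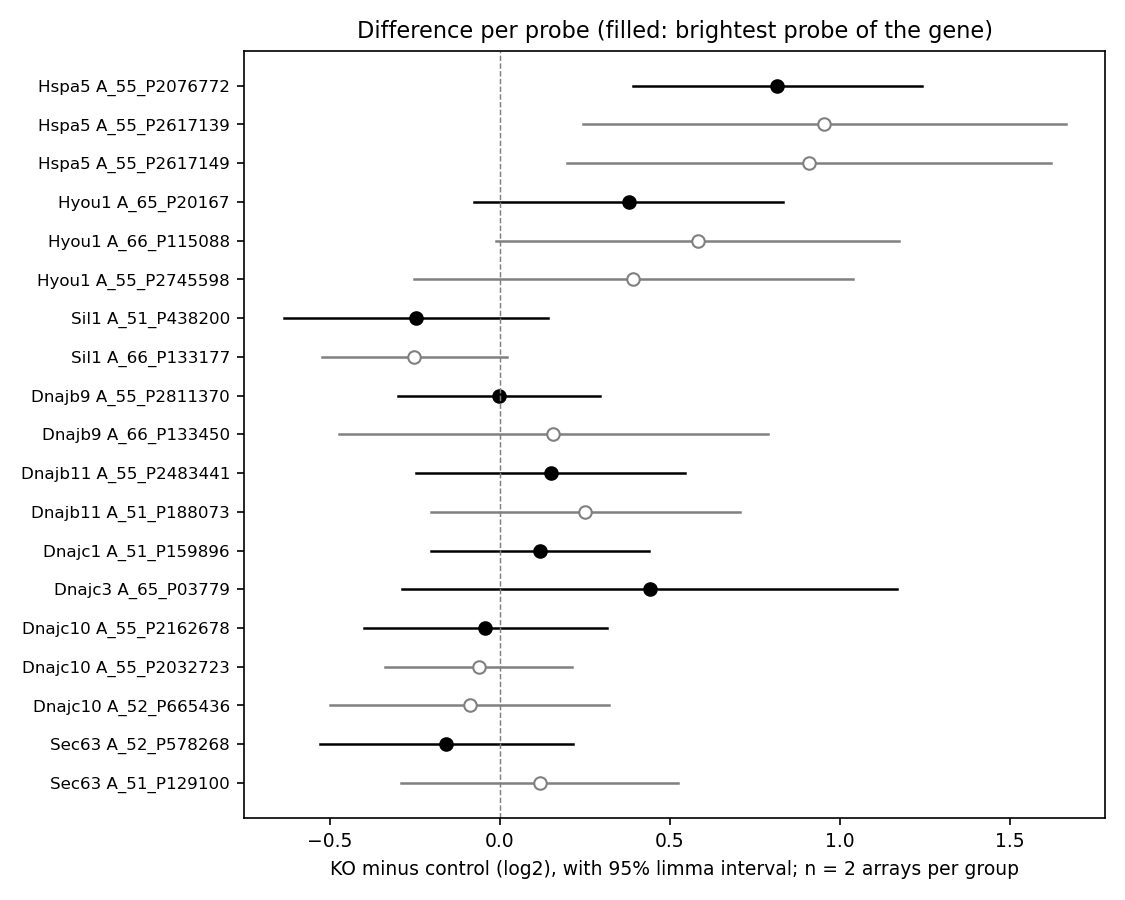
KO minus control on the log2 scale (horizontal axis) with its 95% interval from limma for each of the 19 tested probes (vertical axis), with 2 arrays per group and filled points for the brightest probe of a gene. The intervals of the 3 Hspa5 probes lie above 0, from 0.20 to 1.66 at their ends, and those of the other 16 probes include 0.

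Over the 9 genes, limma called 0 of 19 probes at an adjusted p under 0.05, as it called 0.0% of all 37516 probes. At an unadjusted p under 0.05, 3 of the 19 probes differed, all 3 of Hspa5, against 14.0% of all probes. All 3 were higher in KO, against 8.84% of all probes in that direction. On the brightest probe of each gene, 4 of 9 were higher in KO with separate groups (Hspa5, Hyou1, Dnajc1 and Dnajc3), against 13.8% of all 16524 genes. In the other direction, 2 of 9 were lower with separate groups (Sil1 and Sec63), against 32.1% of all genes. This split moved with the scaling of the arrays. With spike-in scaling it was 5 higher and 0 lower among the 9 genes, beside 24.8% and 17.1% of all genes. With quantile normalization it was also 5 and 0, beside 18.4% and 25.0%. With arrays scaled to the median of probes well above background it was 3 and 2, beside 13.2% and 32.7%. The median difference was 0.12 over the 9 genes, between −0.25 for Sil1 and 0.82 for Hspa5, and −0.06 over all genes.

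By the median over these genes, the arrays of the KO group differed more than the controls did. On the brightest probes, the median gap between the KO arrays was 0.29 on the log2 scale, and the median gap between the controls was 0.09. Over all genes the gaps were 0.15 and 0.12. Dnajc1 went the other way, with 0.010 between the KO arrays and 0.21 between the controls. Sil1 (0.239 and 0.209) and Dnajc10 (0.193 and 0.190) had nearly equal gaps. The widest gap between the KO arrays was that of Dnajc3, at 0.74, followed by Hyou1 at 0.38, Hspa5 at 0.36, Dnajb11 at 0.32 and Sec63 at 0.29. In each of these 5 genes KO replicate 1 was the higher KO array, although for Sec63 it lay below both controls. KO replicate 1 was the highest of the 4 arrays for 5 of 9 genes (Hspa5, Hyou1, Dnajb9, Dnajb11 and Dnajc3), against 20.8% of all genes. It was also the highest on 13 of 19 probes, against 26.2% of all probes. The oligodendrocyte markers were also farthest from control on KO replicate 1, with a median of −0.50 there and −0.17 on KO replicate 2. The microglia markers had medians of −0.32 and −0.14. The part of either list in these differences was not tested.

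**Figure D3:**
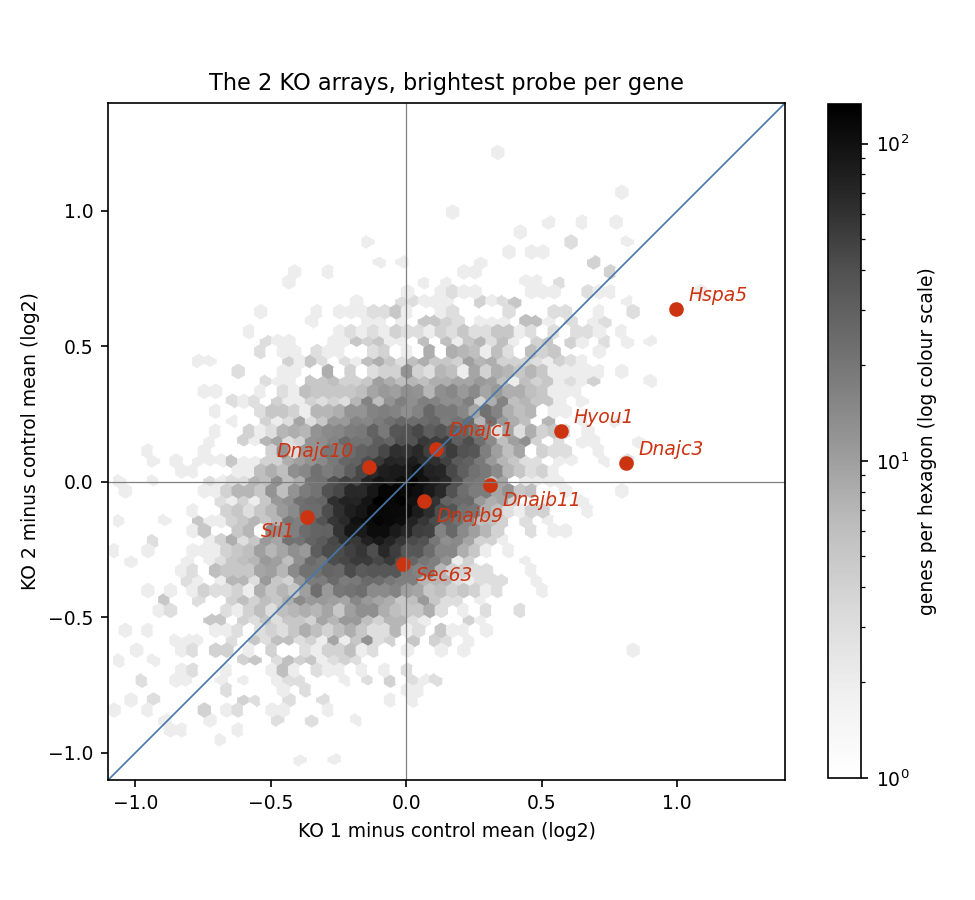
KO replicate 1 minus the control mean (horizontal axis) against KO replicate 2 minus the control mean (vertical axis), both on the log2 scale, for the brightest probe of each gene, with all genes as grey hexagons, the 9 genes in red and equality as a blue line; 320 of 16524 genes lie outside the axes. Hspa5 stands at 0.99 and 0.64, Hyou1 at 0.57 and 0.19, Dnajc3 at 0.81 and 0.07, and all 3 of these genes lie below the line.

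The genes whose profile over the 4 arrays was nearest to that of Hspa5 were sought among 16050 other genes whose signal passed the background test on each of the 4 arrays. Likeness was the root mean square distance between profiles, each taken from its own control mean. The nearest was Magt1, which encodes a thioredoxin-like subunit of an oligosaccharyltransferase complex of the ER, at a distance of 0.018. It stood 0.96 and 0.65 above its control mean on the KO arrays. Next came Gm4971 at 0.057, the protein disulfide isomerase Pdia6 at 0.063, the long noncoding RNA Mir99ahg at 0.081 and the myeloid receptor gene Cd300lf at 0.096. Gm4971 and Mir99ahg were dim, with log2 signals of −4.74 to −3.66 and −2.98 to −2.06 over the arrays. Of the co-chaperones, Dnajc3 was number 207 in this order at a distance of 0.30, Hyou1 number 272 at 0.32 and Sil1 number 13523 at 0.78, of 16058 genes.

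A further list held other partners of BiP, further J-domain proteins of the ER and subunits of the protein import channel. The J domains of Dnajb12, Dnajb14 and Dnajc18 in it face the cytosol and are known to work with the cytosolic Hsp70. Of its 19 genes, all measured, 5 were higher in KO with separate groups and 7 were lower, against 13.8% and 32.1% of all genes, and the median difference was 0.001. With spike-in scaling, 8 were higher and 5 were lower, beside 24.8% and 17.1% of all genes. The 4 with the smallest unadjusted p were all higher in KO. Sdf2l1, an ER protein that forms a complex with Dnajb11, differed by 1.03 (SE 0.27), with KO replicate 1 at 1.33 and KO replicate 2 at 0.74 above the control mean. Manf, an ER-resident factor that stabilises BiP-client complexes, differed by 0.82 (SE 0.22), Pdia6 by 0.73 (SE 0.15) and Creld2 by 0.54 (SE 0.21). The fifth gene higher in KO was Hsp90b1, the ER paralogue of Hsp90, with 0.32 (SE 0.13). The 7 lower genes included Sdf2, the paralogue of Sdf2l1, with −0.19, and the J-domain genes Dnajb12, Dnajb14, Dnajc14 and Dnajc16, with −0.37 to −0.15. Of the partners of Sec63 in protein import, Sec61a1, Sec61b and Sec61g had overlapping groups and differed by 0.01, 0.13 and 0.02, and Sec62 differed by −0.15.

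A list of UPR sensors and transcription factors held 12 genes, the proteases Mbtps1 and Mbtps2 among them. Of these 12, 3 were higher in KO with separate groups (Xbp1, Ddit3 and Eif2ak3) and 1 was lower (Creb3). The shares of all genes were 13.8% and 32.1%, and the median difference of the list was 0.08. Ddit3, which encodes CHOP, differed by 0.48 (SE 0.24), and its KO arrays stood 0.80 and 0.16 above the control mean, so that here too KO replicate 1 was the higher. Eif2ak3, which encodes PERK, differed by 0.19 (SE 0.10), with KO arrays that differed from each other by less than 0.01. Xbp1 differed by 0.70 (SE 0.11). Atf4 differed by 0.37 (SE 0.22), and its controls lay 0.52 apart.

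The cytosolic and mitochondrial Hsp70 machinery was read beside the ER set. Of 29 measured genes of 30 listed, 3 were higher in KO with separate groups and 9 were lower, against 13.8% and 32.1% of all genes. The median was −0.08, near the −0.06 of all genes. Hspa8, the abundant cytosolic Hsp70, differed by 0.02, and the stress-inducible Hspa1a and Hspa1b by −0.04 (SE 0.28) and 0.03 (SE 0.40). Against the control mean, Hspa1a stood at 0.32 on KO replicate 1 and −0.41 on KO replicate 2, and Hspa1b at 0.60 and −0.54. The differences of Hspa1a and Hspa1b thus average KO arrays that lay on opposite sides of the control mean. The 4 genes with the smallest unadjusted p were Hspa12a at −0.40 (SE 0.11), Bag1 at −0.20 (SE 0.10), the mitochondrial J-domain gene Dnaja3 at 0.20 (SE 0.10) and Hsph1, an exchange factor of cytosolic Hsp70 related to Hyou1, at −0.27 (SE 0.16).

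Hspa5 and Dnajc3 were then set beside the other genes that hold the ERSE in a RefSeq promoter. Of the genes with a promoter in the table and a tested probe, 20 held the element, Hspa5 and Dnajc3 counted among them, and 13014 did not. Of the 20, 12 were higher in KO with separate groups, 3 were lower and 5 overlapped. Of the 13014 genes without it, 1793 (13.8%) were higher with separate groups and 4246 were lower. The median difference was 0.24 with the element and −0.07 without it. On KO replicate 1 the median of the 20 genes was 0.31 above the control mean, and on KO replicate 2 it was 0.18. The count of 12 was 11 to 15 under the other settings and with each array left out, where 1 array leaves more genes with separate groups. The share of all genes higher with separate groups moved too, from 13.2% to 27.6% over these fits. With spike-in scaling the count was 12, beside 24.8% of all genes. Without KO replicate 1 it was 14, beside 27.6% of all genes. None of these genes passed the adjusted threshold. This set was formed after the values of Hspa5 and Dnajc3 had been seen.

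The 12 genes were Derl3, Zfp57, Hspa5, Pdia6, Creld2, Calr, Dnajc3, Hsp90b1, Ero1b, Canx, Pan2 and Syvn1. Apart from Zfp57 and Pan2, these encode proteins of ER folding, redox or degradation. The largest difference was that of Derl3, a paralogue of the deleted gene, with 1.48 (SE 0.21). The elements of Hspa5 and Dnajc3 are shown with those of 5 others, read along the strand that carries the element, with fixed bases in capitals, because the fixed bases are shared while the bases between them vary from gene to gene.
Hspa5: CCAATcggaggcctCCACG
Dnajc3: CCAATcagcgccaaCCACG
Derl3: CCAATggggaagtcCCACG
Pdia6: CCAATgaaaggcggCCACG
Creld2 and Alg12: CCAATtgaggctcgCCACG
Calr and 1700122E12Rik: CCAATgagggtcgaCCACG
Hsp90b1: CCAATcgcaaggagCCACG
The same element appeared on opposite strands for Creld2 and Alg12, and again for Calr and 1700122E12Rik. Creld2 differed by 0.54 and Alg12 by 0.08. Calr differed by 0.48 and 1700122E12Rik by −0.17.

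**Figure D4:**
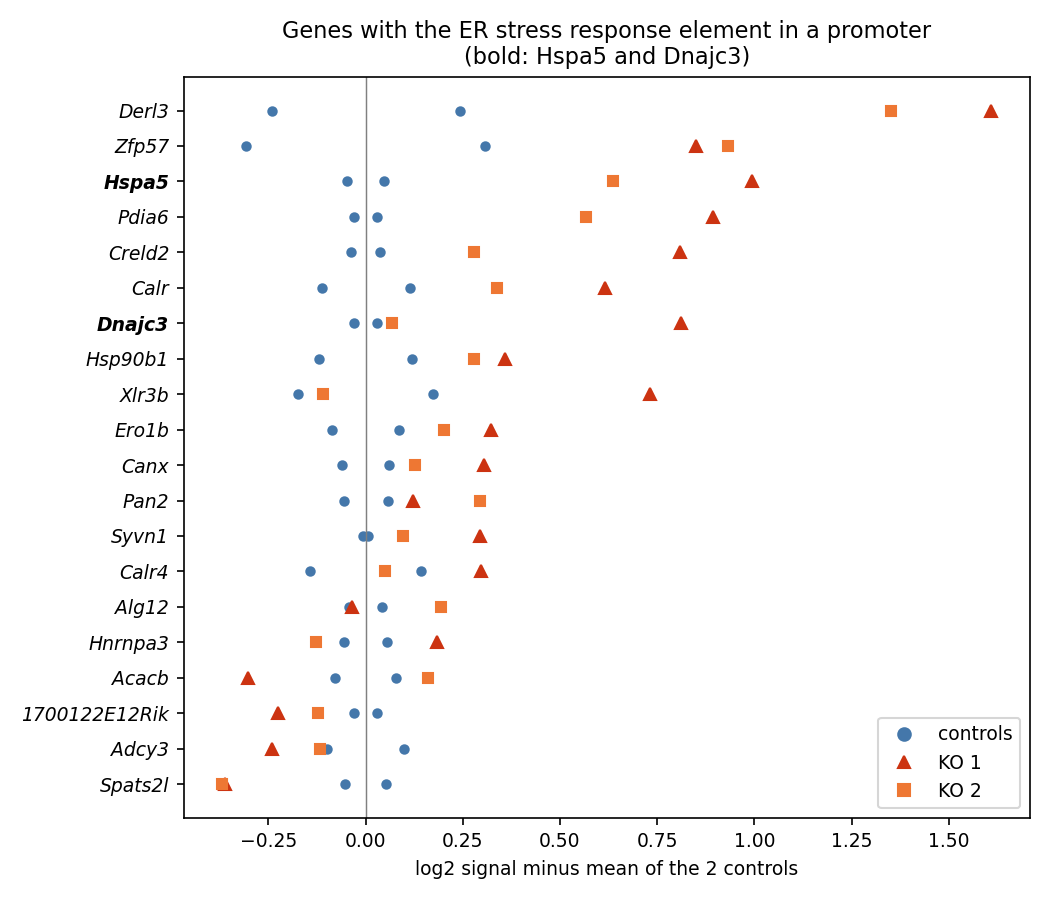
Log2 signal minus the mean of the 2 controls (horizontal axis) on each array for the 20 genes with the ERSE in a promoter (vertical axis), with controls as blue circles, KO replicate 1 as red triangles and KO replicate 2 as orange squares. Both KO arrays lie above both controls for 12 genes, Hspa5 and Dnajc3 among them, and below both for 3.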

How the data were processed

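Total RNA of mouse cerebellum, 150 ng per sample, was labelled with Cy3 for one-colour Agilent arrays, as the labels state. The deposited scanner files hold intensity values, per the file headers from Feature Extraction 12.1.1.1 (10.7.1.1 per the submitters' processing notes), background subtracted and not normalized between arrays. Other deposited columns are flags, per the file headers. The deposited series table holds log2 values, scale unstated by the labels. It was compared over 28926 probes well above background with a signal over 50 on all 4 arrays. After the median offset of each pair of arrays was removed, its differences between arrays matched scaled scanner values within 0.01 for 100% of probes. Its probes are centred on an unknown value, and its column medians were 0.007, −0.19, −0.16 and −0.22.

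Spots of 1 probe were averaged on the log2 processed signal, without control and outlier spots, and the array's 75th percentile was subtracted. Of 35886 probes with a RefSeq accession, 91.9% were named through the RefSeq gene table of GRCm38.p6. The difference between KO and control was fitted with limma 3.58.1 under R 4.3.3 (lmFit, eBayes, two-sided, Benjamini-Hochberg over 37516 probes), with 4.35 degrees of freedom. The brightest probe stands for a gene where 1 probe is used. Levels of different probes are not comparable. The number of arrays limits precision. The fit was tested on simulated data in which 200 of 37516 probes were changed. At an adjusted p under 0.05 it called 0% of the changed probes for a true log2 difference of 0.5 or 1. For a true difference of 2 it called 59%, and for 3 it called 85%. A difference of the size seen for Hspa5 could thus hardly pass the threshold in this design. Alternatives covered the scaling, background correction, filters, variance model, replicate block and each array left out. Groups and replicate numbers come from the sample titles. Named genes are the 9 members, Derl2, the 4 smallest p of each pathway list and the 5 profiles nearest to Hspa5; other genes were named after their values were seen. Members and lists were chosen with earlier results of these data known. Protein sequences were not used here.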

Additional observations from a re-analysis of the deposited data

How the results depend on the processing

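Probes with an adjusted p under 0.05 numbered 0, but 1 under quantile normalization, under the median of probes well above background, under spike-in scaling and with patch spots left out, 2 under normexp and 4 under an intensity trend with robust variances; with an array left out the number ran from 0 to 98, the latter without control replicate 2, on the assumption that a lone array varies as much as the pair. None of these calls was a probe of the 9 genes. The number of the 9 genes lower in KO with separate groups, 2, was 0 under quantile normalization and spike-in scaling and 1 under normexp. The shares of all genes there were 25.0%, 17.1% and 31.3%. The number higher, 4, was 3 under the median of probes well above background, beside 13.2% of all genes. With an array left out the number lower ran from 2 to 3, the number higher from 4 to 6 and the median difference from 0.038 to 0.18. The shares of all genes then ran from 44.6% to 49.3% lower and from 22.6% to 27.6% higher, above the 32.1% and 13.8% with all arrays. Of 285 values of the 19 probes over 15 alternatives, 0 passed the threshold and 15 had the opposite sign; 12 probes, among them all of Hspa5, Hyou1 and Sil1, kept theirs. The brighter Dnajb9 probe was 0.023 under quantile normalization, 0.081 under spike-in scaling, 0.030 under normexp, 0.00072 in the authors' log2 values and −0.072 to 0.064 with an array left out; the dimmer one was −0.079 to 0.39. For Dnajc10, spike-in scaling gave 0.042 and 0.021 on the 2 brighter probes, and with an array left out the brightest ran from −0.14 to 0.054 and the dimmest from −0.26 to 0.084. With an array left out, the brightest Dnajb11 probe ran from −0.011 to 0.31 and the dimmer Sec63 probe from −0.018 to 0.25. The cause of these sign changes was not tested. Hspa5 ran from 0.64 to 0.99 on its brightest probe (limma adjusted p 0.122 to 0.605). The replicate number as a replicate block left the Hspa5 difference at 0.82 (adjusted p 0.272) and the count of calls at 0; same-numbered arrays had deviations that correlated at 0.124, and with 2 arrays per group this gives 1 value, too few to tell whether the numbers pair the samples. Dim probes, such as those of Hyou1, are limited by their signal over background.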
